A study of Rattus norvegicus with 24 samples.

Results

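Lrrc30, Tmem140, Rhobtb1 and Prss46 are 4 little-studied genes of the 21067 listed for rat quadriceps muscle, and their transcript levels were followed here over all 24 libraries. They were selected on their measured levels in earlier results from these libraries. The values they were chosen by were those of catgut group 1 against the treadmill group for Lrrc30, of each catgut group against the treadmill group for Tmem140, and of the treadmill group against the control group for Rhobtb1 and Prss46. In those comparisons the values are given as a description and without a test. All 4 genes passed the filter on low values, which kept 14772 genes.

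The study took quadriceps femoris muscle from Sprague-Dawley rats of both sexes, which were 6 weeks old when they arrived, and sequenced poly(A) RNA in 6 libraries for each of 4 groups. Control rats did no treadmill training. The treadmill, catgut 1 and catgut 2 rats trained for 7 weeks and then ran to exhaustion, so that training and the last run cannot be told apart in any comparison with the control group. The catgut rats carried pieces of resorbable thread, pushed under the skin and into muscle at acupoints. Those of group 1 had it at Bai Hui and Qiang Feng, at Yang Wa and Qian Shen, and at Xie Qi and Han Gou, and those of group 2 at all of these and also at Fei Shu. Of these points, 4 are in each hind limb, where the quadriceps lies. Embedding was done under ether a week before training began, and no sham embedding is described for the treadmill rats. All rats had been placed on the treadmill for a short habituation before they were assigned. The sample labels give no sex, time of day, date or batch for a library.

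The 4 genes code for unrelated proteins. Lrrc30 codes for a protein of leucine-rich repeats, short folds that stack into a curved surface on which other proteins bind. Tmem140 codes for a small membrane protein with several membrane-spanning stretches, whose transcript is counted among the interferon-induced ones. Rhobtb1 codes for an atypical small GTPase-like protein that carries BTB domains and presents substrates to Cul3 ubiquitin ligases. Prss46 codes for a trypsin-like serine protease, listed in RefSeq with the older name Tessp6, from a family known mainly from the testis.

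The start regions of the 3 more abundant genes are shown because Lrrc30 and Tmem140 varied with a transcript of the circadian clock and Rhobtb1 with Y-linked transcripts. Each is 300 bases of RefSeq sequence on the GRCr8 build, from 250 bases before the listed transcription start to 50 after it, written 5′ to 3′ on the strand of the gene. The windows are 9:115072882-115073181 on the minus strand for Lrrc30, 4:64503371-64503670 on the plus strand for Tmem140 and 20:19402008-19402307 on the minus strand for Rhobtb1, where RefSeq lists 13 transcripts and this is 1 of their starts. Capitals mark every match to 5 motifs searched on both strands. These are the E-box CACGTG, which clock factors can bind, the E-box CAGCTG, which myogenic factors can bind, a MEF2-type motif (CTA and TAG with 4 bases between them), an interferon-response type (GAAA and GAAA with 2 bases between them) and TATAAA.
Lrrc30: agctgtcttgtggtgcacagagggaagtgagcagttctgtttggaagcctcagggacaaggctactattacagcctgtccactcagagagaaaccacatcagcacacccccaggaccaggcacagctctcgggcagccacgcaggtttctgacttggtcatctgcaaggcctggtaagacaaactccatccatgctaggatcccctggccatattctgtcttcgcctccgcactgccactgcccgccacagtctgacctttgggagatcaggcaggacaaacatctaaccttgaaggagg
Tmem140: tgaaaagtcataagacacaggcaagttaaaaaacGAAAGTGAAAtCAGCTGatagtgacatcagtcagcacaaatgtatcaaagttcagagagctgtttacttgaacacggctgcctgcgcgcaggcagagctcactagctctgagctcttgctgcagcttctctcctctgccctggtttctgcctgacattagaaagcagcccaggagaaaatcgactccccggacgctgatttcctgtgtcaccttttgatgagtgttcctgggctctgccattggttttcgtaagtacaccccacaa
Rhobtb1: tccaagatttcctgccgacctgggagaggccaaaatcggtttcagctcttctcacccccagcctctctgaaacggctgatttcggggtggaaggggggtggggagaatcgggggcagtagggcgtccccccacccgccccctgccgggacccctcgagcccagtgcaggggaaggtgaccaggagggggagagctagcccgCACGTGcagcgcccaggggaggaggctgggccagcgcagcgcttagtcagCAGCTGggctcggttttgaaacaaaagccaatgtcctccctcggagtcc
The Lrrc30 window held none of the 5 motifs, and the Prss46 window (8:119707437-119707736, plus strand) held none either. The Tmem140 window held the interferon-response type, which starts 216 bases before the transcription start, and CAGCTG 205 bases before it. The Rhobtb1 window held CACGTG 49 bases before the start and CAGCTG 2 bases after it. Of all 33469 RefSeq windows of this length, 6.42% held CACGTG, 15.1% CAGCTG, 3.84% the MEF2 type, 3.92% the interferon-response type and 14.2% TATAAA. A match describes the letters of the window and does not show a site in use.

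Total counts per library were between 45945938 and 78278080. The commonest count above 0 was 4, so about 4 counts correspond to 1 fragment, and 12 counts (3 fragments) were taken as the limit of detection, which covers counting error only. Levels are given in FPKM, which is corrected for transcript length and depth. Of 10 markers of skeletal muscle, 7 were used and 3, Myh2 and Myh4 among them, were not analysed here. Their summed level was 63564 to 87597 FPKM. Summed liver markers reached 243 FPKM in control replicate 2, 27.8 in treadmill replicate 2 and 365 in treadmill replicate 3, and 0.224 to 6.63 in the other 21 libraries. Of these, treadmill replicates 5 and 6 had 4.61 and 6.63 FPKM, and no other had more than 1.01. The Y-linked transcripts (Ddx3, Eif2s3y and Kdm5d) summed to 12.6 to 32.0 FPKM in 11 libraries and to at most 0.0476 in 13. The study's methods give equal numbers of males and females per group, and 3 libraries of each group held these transcripts except catgut group 2, in which 2 did. Control replicates 1 and 2 stood apart from the other control libraries in the clock transcripts. Some results that rest on these libraries are given with and without them. The Y-linked level in the fits was taken from the summed FPKM of all 12 genes listed on chromosome Y. That sum was 16.0 to 39.6 FPKM in the 11 libraries with Y-linked transcripts and 2.89 to 6.12 in the 13 without. The fit of the Y-linked level was not repeated without control replicates 1 and 2 alone.

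**Figure D1:**
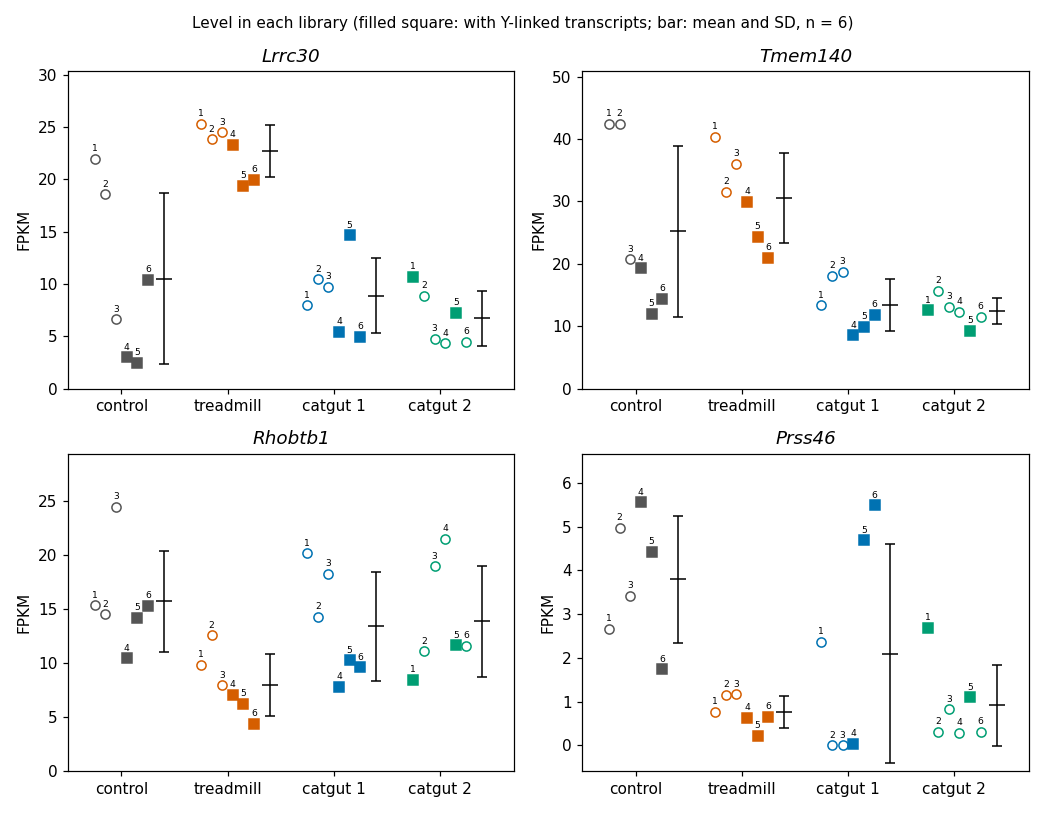
The FPKM of each gene in every library, by group, with the replicate number above each point, filled squares for the 11 libraries with Y-linked transcripts, open circles for the 13 without, and a bar for the mean and SD of 6 libraries. Lrrc30 and Tmem140 are high in the treadmill group and in control replicates 1 and 2, while Prss46 is spread from 0 to 5.49 FPKM in catgut group 1.

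Lrrc30 (ENSRNOG00000030389) is listed on chromosome 9 from 115849732 to 115850634 on the minus strand, in a table whose build is not stated. The 6 treadmill libraries had 19.4 to 25.3 FPKM (median 23.6) and the control libraries 2.43 to 22.0 (median 8.50). In catgut group 1 the values were 4.97 to 14.6 (median 8.84), and in catgut group 2 they were 4.32 to 10.7 (median 6.03). Every treadmill library was above every library of either catgut group. The means were 22.7 ± 2.46 FPKM (SD, n = 6) in the treadmill group, 10.5 ± 8.17 in the control group, 8.86 ± 3.59 in catgut group 1 and 6.73 ± 2.64 in the other catgut group. The wide spread of the control group came from its libraries 1 and 2, which had 22.0 and 18.6 FPKM, against 2.43 to 10.4 in the other 4. In the order of means, treadmill, control, catgut 1 and catgut 2, neighbouring groups overlapped at each step.

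In catgut group 1 against the treadmill group, where Lrrc30 was chosen, its log2 fold change was -1.40 (SE 0.20). All 6 catgut libraries were below the treadmill libraries, as in 0.115% of the genes tested. In catgut group 2 against the treadmill group, which shares the 6 treadmill libraries with that comparison, Lrrc30 fell by 1.76 on the log2 scale (SE 0.25, adjusted p = 0.0152 in edgeR's quasi-likelihood test). There 0.237% of the genes tested were called, 0.129% as lower, and 0.454% were lower without overlap. The number of genes called here, 35, was 6 to 30 with each library left out in turn, with 6 without treadmill replicate 1 and 9 without catgut 2 replicate 5. The call of Lrrc30 was lost in several alternatives. Among them were those without treadmill replicate 1 (adjusted p = 0.0522) and without the 2 treadmill libraries over 20 FPKM of liver transcripts (-1.77, adjusted p = 0.0507). It was also lost in 1 fit over all 4 groups (adjusted p = 0.0832). The same held with the liver level (adjusted p = 0.0856) or the clock level as a covariate (-1.32, adjusted p = 0.814). With the Y-linked level as a covariate the log2 fold change was -1.73 (adjusted p = 0.0144). In bulk muscle, fewer cells of a type and less transcript per cell cannot be told apart.

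Against the control group, Lrrc30 did not pass the test in any group. The share of all genes called was 0.0542% for the treadmill group, 0.0203% for catgut group 1 and 0.508% for catgut group 2. For Lrrc30 the log2 fold change was 1.10 in the treadmill group (SE 0.48, adjusted p = 0.539), with 4 of 6 treadmill libraries above all control libraries. Without control replicates 1 and 2 it was 2.03 (SE 0.40, adjusted p = 0.120). In catgut group 2 against the control group, which shares no library with the comparison that chose the gene, it was -0.66 (SE 0.53, adjusted p = 0.581), and 0.26 without those 2 libraries. In catgut group 1 against the control group it was -0.30 (SE 0.51, adjusted p = 0.890), and 0.62 without them. Between the catgut groups the difference was -0.36 (SE 0.30, adjusted p = 1), where 0.00677% of all genes were called.

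Tmem140 (ENSRNOG00000026965) is listed on chromosome 4 from 62380914 to 62391912 on the plus strand. Treadmill libraries had 20.9 to 40.3 FPKM (median 30.7) and control libraries 11.9 to 42.4 (median 20.003). The range was 8.53 to 18.7 in catgut group 1 (median 12.6), while catgut group 2 had 9.30 to 15.6 (median 12.4). As for Lrrc30, the treadmill libraries were all above the catgut libraries. Of the genes tested, 0.115% were so placed for catgut group 1 and 0.454% for catgut group 2. Control replicates 1 and 2 were high, at 42.4 FPKM each. The other 4 control libraries had 11.9 to 20.7 FPKM. The means were 30.5 ± 7.19 (treadmill), 25.2 ± 13.7 (control), 13.4 ± 4.20 (catgut 1) and 12.4 ± 2.07 FPKM (catgut 2), each with the SD of n = 6, and each neighbouring pair overlapped.

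Both catgut comparisons with the treadmill group were used to choose Tmem140, and its log2 fold changes there were -1.22 (SE 0.18) in catgut group 1 and -1.33 (SE 0.15) in catgut group 2. With the clock level as a covariate they were -0.76 and -0.80. The remaining comparisons share libraries with these and did not pass the test. The difference was 0.28 in the treadmill group against the control group (SE 0.32, adjusted p = 0.815), -0.94 in catgut group 1 against the control group (SE 0.33, adjusted p = 0.408) and -1.04 in catgut group 2 against the control group (SE 0.31, adjusted p = 0.141). Without control replicates 1 and 2 these values were 0.94, -0.28 and -0.39, with adjusted p from 0.125 to 0.681. With the Y-linked level as a covariate, Tmem140 passed the test in catgut group 2 against the control group (-1.14, adjusted p = 0.0442). In that fit 150 of the 14772 genes tested were called, 44 of them as lower, beside 75 called without the covariate. The catgut groups differed from each other by -0.10 (SE 0.17, adjusted p = 1).

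Rhobtb1 (ENSRNOG00000000633) is listed on chromosome 20 from 20638579 to 20713128 on the minus strand with 2 transcripts. Control libraries had 10.5 to 24.5 FPKM (median 14.9) and treadmill libraries 4.39 to 12.6 (median 7.54). Catgut group 2 had 8.48 to 21.5 (median 11.7), and the range of catgut group 1 was 7.82 to 20.2 (median 12.3). The treadmill group was lowest, and 5 of its 6 libraries were below every control library. The means were 15.7 ± 4.67 (control), 13.9 ± 5.12 (catgut 2), 13.4 ± 5.01 (catgut 1) and 8.03 ± 2.88 FPKM (treadmill), each with the SD of n = 6, and neighbours in this order overlapped.

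In the treadmill group against the control group, where it was chosen, the log2 fold change of Rhobtb1 was -0.98 (SE 0.22). The overlap came from treadmill replicate 2, with 12.6 FPKM, and control replicate 4, with 10.5 FPKM. Among libraries without Y-linked transcripts the treadmill values were 7.98 to 12.6 FPKM and the control values 14.5 to 24.5. Among libraries with them the treadmill values were 4.39 to 7.11 FPKM and the control values 10.5 to 15.3. These are the values by which the gene was chosen, divided after they were seen. The share of all genes separated in this way was not counted. In the catgut groups Rhobtb1 was above the treadmill level without passing the test, by 0.74 in catgut group 1 (SE 0.24, adjusted p = 0.441) and by 0.77 in catgut group 2 (SE 0.22, adjusted p = 0.189). Those comparisons share the treadmill libraries. The catgut groups, which share no library with the comparison that chose it, differed by 0.03 (SE 0.25, adjusted p = 1). Against the control group the differences were -0.24 in catgut group 1 (SE 0.25, adjusted p = 0.804) and -0.21 in catgut group 2 (SE 0.23, adjusted p = 0.707).

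Prss46 (ENSRNOG00000020981) is listed on chromosome 8 from 119121669 to 119133546 on the plus strand and was the least abundant of the 4 genes. Control libraries had 1.74 to 5.56 FPKM (median 3.93) and treadmill libraries 0.212 to 1.16 (median 0.709). Catgut group 1 ran from 0 to 5.49 (median 1.21), and catgut group 2 had 0.279 to 2.68 (median 0.564). In counts, the control libraries had 166 to 499 and the treadmill libraries 19 to 92, all above the limit of detection. Catgut group 1 was split: libraries 1 to 6 had 173, 0, 0, 3, 407 and 468 counts, so that 3 libraries were at or under the limit and the other 3 were within the control range. The means were 3.80 ± 1.45 (control), 2.10 ± 2.50 (catgut 1), 0.915 ± 0.929 (catgut 2) and 0.763 ± 0.361 FPKM (treadmill), each with the SD of n = 6, and neighbours in this order overlapped.

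All 6 treadmill libraries were below the control libraries for Prss46, as in 0.122% of the genes tested, and the log2 fold change in this comparison, in which it was chosen, was -2.28 (SE 0.36). In catgut group 2, 5 of 6 libraries were below every control library, and the log2 fold change was -1.95 (SE 0.58, adjusted p = 0.137). In catgut group 1, 3 of 6 were below every control library, and the log2 fold change was -0.82 (SE 1.07, adjusted p = 0.847). Both comparisons share the control libraries. The differences of the catgut groups from the treadmill group were 1.45 (SE 1.16, adjusted p = 0.929) and 0.34 (SE 0.61, adjusted p = 0.914), and the latter was -0.47 without catgut 2 replicate 1. Between the catgut groups, which share no library with the comparison that chose the gene, the difference was -1.12 (SE 1.21, adjusted p = 1). Markers of satellite cells, the stem cells of muscle, had a summed level of 9.01 to 10.2 FPKM in the treadmill group and 4.17 to 7.61 in the control group. In catgut groups 1 and 2 it was 4.41 to 9.92 and 5.12 to 9.37 FPKM. The correlation of Prss46 with that sum over the 24 libraries was r = -0.57, and -0.37 with group means removed. With the summed neutrophil markers it was -0.51 and -0.43. Over the 24 libraries these 2 sums had the correlations with Prss46 furthest from 0 among the marker lists. The summed interferon-induced genes came next, with 0.46, and 0.37 with group means removed. The part of satellite cells or neutrophils in the result was not tested.

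**Figure D2:**
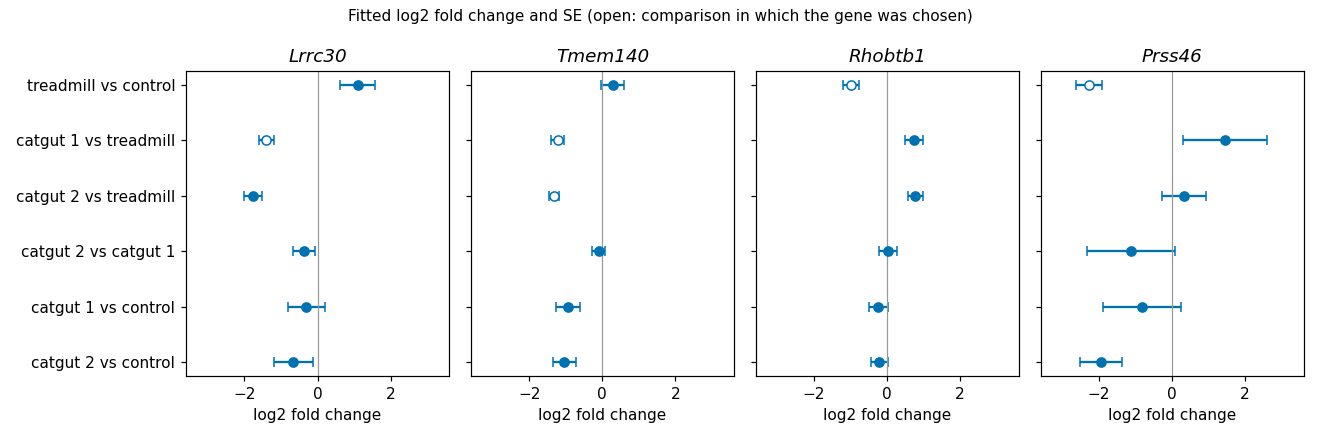
The fitted log2 fold change of each gene in 6 comparisons, with its SE as a bar, and open points where the gene was chosen in that comparison. Lrrc30 and Tmem140 lie at -1.22 to -1.76 in both catgut comparisons with the treadmill group, while the SE of Prss46 exceeds 1 wherever catgut group 1 takes part.

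Lrrc30 and Tmem140 followed the clock transcript Arntl, which codes for the activator BMAL1 of the circadian clock, from library to library. The clock is a feedback loop in which BMAL1 and its partners switch on the Per and Cry repressors, and muscle carries its own. Arntl was at 3.88 to 11.04 FPKM in the treadmill group, 11.4 and 9.26 in control replicates 1 and 2, and 1.11 to 2.32 in the other control libraries. The catgut libraries of group 1 had 0.804 to 3.75 FPKM and those of group 2 had 0.808 to 2.30. The 8 libraries with the most Arntl, 6 of the treadmill group and 2 of the control group, were also the 8 with the most Lrrc30 (18.6 FPKM or more, against at most 14.6 in the other 16) and the 8 with the most Tmem140 (20.9 FPKM or more, against at most 20.7).

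Over the 24 libraries, on log2(FPKM + 1), the correlation with Arntl was r = 0.86 for Lrrc30 (Spearman's correlation 0.83) and r = 0.93 for Tmem140 (Spearman's correlation 0.91). With group means removed, r was 0.76 and 0.90. Without control replicates 1 and 2 as well, it was 0.46 and 0.77, so that the relation of Lrrc30 within groups rested in part on those 2 libraries. For Rhobtb1 r was -0.16 over all libraries and 0.37 with group means removed. For Prss46 it was -0.04 in each. These values are descriptions of libraries that share groups and a normalization, and Arntl was named because it was among the genes most like Lrrc30 and Tmem140.

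**Figure D3:**
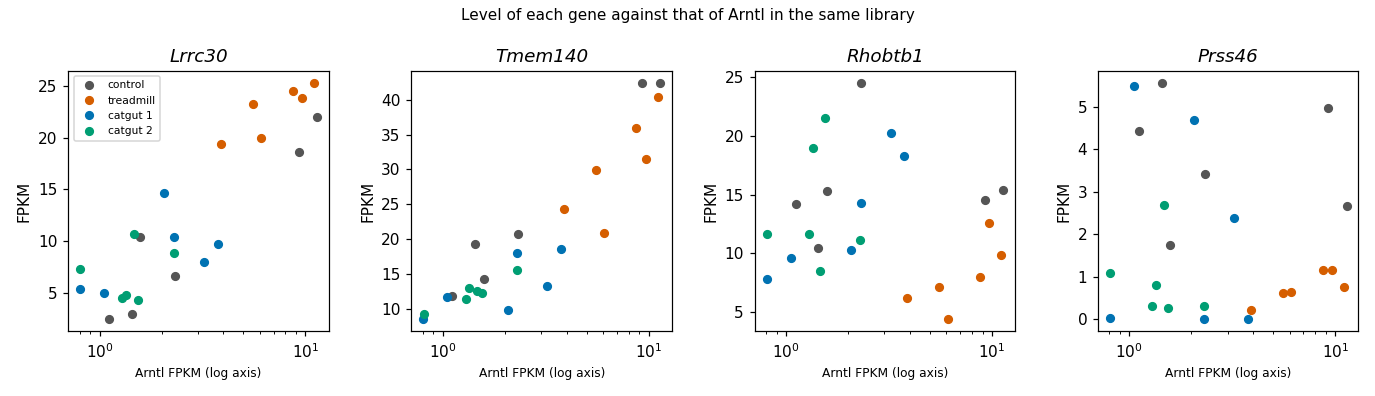
The FPKM of each gene (linear axis) against that of Arntl (log axis) in the same library, coloured by group. Tmem140 and Lrrc30 are high where Arntl is high, including control replicates 1 and 2 at 11.4 and 9.26 FPKM of Arntl, and Rhobtb1 and Prss46 show no such order.

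A clock level was set for each library as the mean z score of 8 transcripts whose rhythm is opposite to that of Arntl (Per1, Per2, Per3, Dbp, Tef, Ciart, Nr1d1 and Nr1d2) minus that of Arntl, Npas2, Clock and Nfil3. It was -3.39 to -0.02 in the treadmill group, -2.26 and -1.71 in control replicates 1 and 2, and 0.143 to 1.77 in all other libraries. In a fit with the groups in the model, which was added after the data were seen, Tmem140 was lower by 1.70 on the log2 scale from the lowest to the highest clock level (coefficient -1.70, SE 0.31, adjusted p = 0.0204). Of the genes tested, 0.169% were called lower in that fit. The call rested on control replicates 1 and 2, without which the coefficient was -0.84 (adjusted p = 0.978). For Lrrc30 it was -2.41 (SE 0.61, adjusted p = 0.114), for Rhobtb1 -0.14 (adjusted p = 0.941) and for Prss46 -1.12 (adjusted p = 0.864). Not every transcript in the clock level went with its side. Over the 24 libraries Nr1d1 had r = 0.40 with Tmem140 and 0.27 with Lrrc30, and Clock had 0.006 and -0.10. The other transcripts had the sign of their side with both genes. Arntl, Per2, Dbp and Tef enter the clock level and were among the genes most or least like Tmem140 or Lrrc30 in these same libraries. The p-values of Tmem140 and Lrrc30 in this fit are therefore descriptions and no independent evidence.

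Of the 19 clock genes listed, all were tested. In catgut group 1 against the treadmill group 2 were higher on the log2 scale, Per2 by 2.06 (adjusted p = 0.0188) and Cry2 by 0.52 (adjusted p = 0.0377), where 0.0474% of all genes were called. In catgut group 2 against the treadmill group Per2 was higher by 2.19 and Cry2 by 0.57, and Arntl and Npas2 were lower, with log2 fold changes of -2.37 and -2.51 (adjusted p from 0.00494 to 0.0427). The log2 fold changes of Lrrc30 and Tmem140 in that comparison, -1.76 and -1.33, had the sign of that of Arntl. Tmem140 was chosen in that comparison, Lrrc30 in one with the same treadmill libraries, and Arntl for its likeness to both. The shared sign was largely fixed by these choices. No clock gene passed the edgeR test between the treadmill and control groups (6 at an unadjusted p under 0.05, and 0 by limma and by DESeq2). Time of day of sampling is not in the labels, and its part in these values was not tested.

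In each group, the means of Tmem140 and Rhobtb1 were lower in the libraries that hold Y-linked transcripts. These are replicates 4 to 6 of the control, treadmill and catgut 1 groups and replicates 1 and 5 of catgut group 2. For Tmem140 the libraries with and without them did not overlap in the control group (11.9 to 19.3 against 20.7 to 42.4 FPKM), the treadmill group (20.9 to 29.9 against 31.5 to 40.3) or catgut group 1 (8.53 to 11.8 against 13.3 to 18.7). They overlapped in catgut group 2 (9.30 to 12.6 against 11.5 to 15.6). Apart from control replicates 1 and 2, the control side without Y-linked transcripts was replicate 3 alone, at 20.7 FPKM. For Rhobtb1 the libraries with and without Y-linked transcripts did not overlap in the treadmill group (4.39 to 7.11 against 7.98 to 12.6 FPKM) or in catgut group 1 (7.82 to 10.3 against 14.3 to 20.2), and they overlapped in the other groups. In the treadmill group Lrrc30 (19.4 to 23.3 against 23.8 to 25.3) and Prss46 (0.212 to 0.653 against 0.765 to 1.16) did not overlap either. Prss46 was without overlap in the other direction in catgut group 2 (1.09 to 2.68 against 0.279 to 0.820). The share of all genes without such overlap was not counted.

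In the fit with the groups in the model, the coefficient from the lowest to the highest Y-linked level was -1.01 for Tmem140 (SE 0.21, adjusted p = 0.0210), so that it passed the test. Of the genes tested, 0.46% were called lower. For Rhobtb1 it was -0.86 (SE 0.21, adjusted p = 0.0658), and -0.72 when the level was taken from Ddx3, Eif2s3y and Kdm5d alone (adjusted p = 0.0193). For Lrrc30 it was -0.58 (SE 0.46, adjusted p = 0.776) and for Prss46 1.26 (SE 1.02, adjusted p = 0.777). Control replicates 1 and 2, which stood apart in the clock transcripts, hold no Y-linked transcripts. With the clock level as a further covariate, the coefficient was -0.60 for Tmem140 (adjusted p = 0.366) and -1.06 for Rhobtb1 (adjusted p = 0.0697). Without the control group the coefficient of Tmem140 was -0.63 (adjusted p = 0.320), without the treadmill group -1.09 (adjusted p = 0.0616) and without catgut group 1 -1.04 (adjusted p = 0.160).

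**Figure D4:**
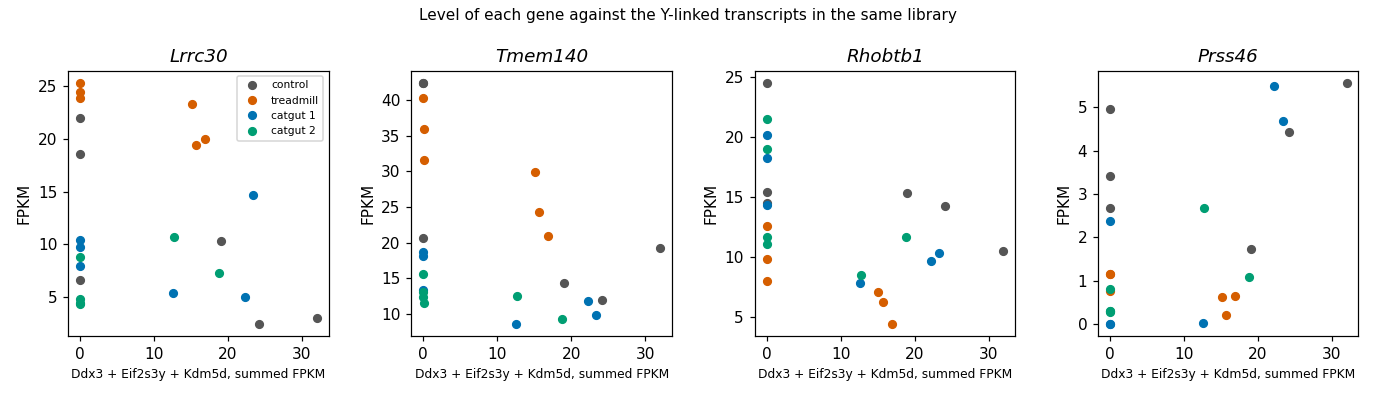
The FPKM of each gene against the summed FPKM of Ddx3, Eif2s3y and Kdm5d in the same library, coloured by group. Within the treadmill and catgut 1 groups, the libraries with Y-linked transcripts (12.6 FPKM or more) lie below those near 0 for Tmem140 and Rhobtb1.

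The genes whose pattern was most like each of the 4 were taken from 9287 genes with a symbol and a mean of at least 1 FPKM. For Lrrc30 they were Sphk2, a sphingosine kinase (r = 0.90), Arntl (0.86), the mitochondrial carrier Ucp3 (0.85), the TWEAK receptor Tnfrsf12a (0.79) and Asb2 (0.75), and the least like were the clock output factors Tef (-0.86) and Dbp (-0.82). For Tmem140 they were Arntl (0.93), Ucp3 (0.89), Alpk2 (0.89), the collagen gene Col5a3 (0.88) and the kinase gene Dyrk2 (0.88), and the least like were Dbp (-0.86) and Per2 (-0.85). Arntl and Ucp3 stood in both lists, while Lrrc30 and Tmem140 themselves had r = 0.74, and 0.27 with group means removed and without control replicates 1 and 2.

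For Rhobtb1 the most alike were Rbl2, a relative of the retinoblastoma protein (0.83), Napa (0.79), the proteasome subunit Psmd7 (0.79), Aldh6a1 (0.79) and Ric8b (0.78), and among the least alike was Smpd1 (-0.79). For Prss46 the values were lower, with Cmc1 (0.69), the mitochondrial channel Vdac2 (0.66), Parp12 (0.61), Dzip1l (0.60) and Lpar6 (0.60), and Btbd6 (-0.79) and Blcap (-0.73) at the other end. With group means removed, 3 of the 5 genes remained among the 5 most like for Lrrc30, 3 for Tmem140, 1 for Rhobtb1 and 1 for Prss46.

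The genes beside the 4 on their chromosomes were followed as well. Of 24 neighbours, 3 on each side of a gene, 14 were tested, and 0 of 84 pairs of neighbour and comparison had an adjusted p under 0.05 in edgeR (3 at an unadjusted p under 0.05, and 0 by limma and by DESeq2). The gene Cyren overlaps Tmem140 by 143 bases on the other strand, and the sources used here do not say whether counting used strand. Its mean level was 0.408 FPKM against 20.4 for Tmem140. The proteases Prss42 and Prss50, which lie on either side of Prss46, had means of 0.00104 and 0.0388 FPKM.

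The families of the 4 genes showed few calls. Of 44 other genes named Lrrc and a number, 30 were tested and none passed the edgeR test in any of the 6 comparisons (0 to 3 at an unadjusted p under 0.05, and at most 1 by DESeq2 and 0 by limma). By mean level, Lrrc30 (12.2 FPKM) ranked 5 of 45, below Lrrc20 (122), Lrrc39 (29.4) and Lrrc2 (26.0) among others. Of 21 other genes named Prss and a number, 4 were tested and none passed (at most 1 at an unadjusted p under 0.05, and 0 by DESeq2 and by limma). Prss46 (1.89 FPKM) ranked 3 of 22 after Prss23 (21.3) and Prss53 (1.98). Of 19 genes that code for other RhoBTB proteins, Cul3, its core partners and related BTB adaptors, 17 were tested and none passed (0 to 4 at an unadjusted p under 0.05, at most 2 by DESeq2 and 0 by limma). The most abundant of them were the muscle adaptor Klhl41 (338 FPKM), the ligase subunit Rbx1 (123) and Klhl31 (98.8).

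Interferon-induced genes were listed because Tmem140 is counted among them. Of 37, 36 were tested and none passed the edgeR test in any comparison (1 to 22 at an unadjusted p under 0.05, at most 4 by DESeq2 and 0 by limma). Their median log2 fold change was -1.25 in the treadmill group, -1.34 in catgut group 1 and -1.21 in catgut group 2 against the control group, beside medians of all genes from -0.012 to -0.0020, and -0.27 and 0.10 in the catgut groups against the treadmill group. Their summed level was 174 to 1308 FPKM in the control group and at most 360 elsewhere. Tmem140 itself was at 0.28 in the treadmill group against the control group, and its correlation with the summed level over the 24 libraries was r = 0.16.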

How the data were processed

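Quadriceps RNA of 24 rats was compared in 4 groups of 6 libraries. Reads were processed by the authors (HISAT2 2.0 and StringTie 1.3.0, per the submitters' processing notes), and the genome build is not given in the sources used here. The deposited table holds a whole-number count and an FPKM per gene and library. The counts as deposited may have been worked back from coverage, since 4 and 8 were the commonest values above 0. The deposited FPKM values are normalized to length and depth by the authors.

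Groups and replicate numbers came from the labels. Genes under a mean of 0.1 FPKM were left out. The 12 libraries of each comparison were fitted with edgeR 4.0.16 (R 4.3.3, TMM, two-sided quasi-likelihood test), with Benjamini-Hochberg adjustment over all 14772 genes. Y-linked and clock levels, scaled from 0 to 1, were tested over 24 libraries with groups in the model. The alternatives included limma 3.58.1 on log2(FPKM + 1) and log2(FPKM + 0.1), DESeq2 1.42.0, an exact permutation test, covariates and each library left out. The steps were tested on simulated data. Correlations used log2(FPKM + 1). Named genes are the 4, their neighbours, the 5 most and 2 least correlated genes, and list members that passed or were the 3 most abundant. Of these, 1 gene that this rule names is not reported here. The members and lists were chosen with earlier results of these data known. P-values measure the spread between libraries, each taken as 1 rat.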

Additional observations from a re-analysis of the deposited data

Results flagged for a closer look

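In 16 groups of 6 libraries (4 genes in 4 groups), the highest or lowest library was tested for a gap to its neighbour that is large for the range of its group, and 2 groups had one. Chance alone gives about 1 such group in 20. Control replicate 3 had 24.5 FPKM of Rhobtb1, with the other 5 control libraries at 10.5 to 15.4, and without it the log2 fold change of the treadmill group against the control group was -0.82. Catgut 2 replicate 1 had 2.68 FPKM of Prss46, with the other 5 at 0.279 to 1.09. Without that library, the log2 fold change of Prss46 in catgut group 2 was -2.75 against the control group (adjusted p = 0.0510) and -0.47 against the treadmill group (adjusted p = 0.820).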

How the results depend on the processing

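For 27 tested results on the 4 genes, 575 alternatives were computed, of which 524 kept the direction and the side of the threshold. For the 5 results in comparisons that chose a gene (no threshold), 137 of 137 alternatives kept the direction, which that choice largely fixed. The call of Lrrc30 in catgut group 2 against the treadmill group was lost in 1 fit over all groups (-1.76, adjusted p = 0.0832), with the liver level (-1.77, adjusted p = 0.0856) or clock level (-1.32, adjusted p = 0.814) as a covariate, without the libraries rich in liver transcripts (-1.77, adjusted p = 0.0507), and without treadmill replicate 1. Leaving out each library in turn gave -2.01 to -1.66 (adjusted p 0.00395 to 0.0522). The exact permutation test (-1.68, adjusted p = 0.209) called 0 genes in any comparison. DESeq2 added calls for Rhobtb1 in catgut group 2 against the treadmill group (0.77, adjusted p = 0.0253) and against the control group for Tmem140 (-1.04, adjusted p = 0.0189) and Prss46 (-1.94, adjusted p = 0.0120). The Y-linked covariate added Tmem140 there (-1.14). For Prss46 in the treadmill group against the control group, limma on log2(FPKM + 1) and the permutation test gave -1.41 on that scale. With the clock covariate, Tmem140 moved to -0.76 and -0.80 in catgut groups 1 and 2 against the treadmill group. It was -0.18 in the treadmill group against the control group. The causes were not tested.

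Signs turned only in differences that did not pass the test. Lrrc30 in catgut group 1 against the control group was 0.0082 with the liver level, 0.43 with the clock level, 0.051 by limma with a pseudocount of 1 and in the permutation test, 0.10 with a pseudocount of 0.1, and 0.62 without control replicates 1 and 2, with -0.51 to 0.058 when each library was left out. In catgut group 2 against the control group it was 0.21 with the clock level and 0.26 without those 2 libraries. With a pseudocount of 0.1, Prss46 was -0.23 in catgut group 1 and -0.049 in catgut group 2 against the treadmill group (-0.47 to 0.52 with each library left out) and 0.18 between the catgut groups. Rhobtb1 between the catgut groups was -0.048 with the Y-linked level, -0.14 with the clock level and -0.12 to 0.22 with each library left out.

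Replicate numbers are shared between groups, but the correlation of same-numbered libraries was over 0.1 in only 0 to 3 of 6 pairs in a comparison (range -0.49 to 0.28), so they were not treated as pairs. In catgut group 1 against the control group it was 0.020 to 0.25. In each comparison 0 to 2 of 6 first-group libraries correlated best with their own number. With the replicate block, Lrrc30 in catgut group 2 against the treadmill group was -1.86 (adjusted p = 0.0791) and in catgut group 1 against the control group 0.050. Prss46 with the block was -0.52 and -0.18 in catgut groups 1 and 2 against the treadmill group and 0.61 between them, and -2.64 in catgut group 1 against the control group. Genes called with the block were 7, 2 and 3 in the study's 3 comparisons.

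The Tmem140 coefficient for the Y-linked level lost its call with the clock level (-0.60) and without the control (-0.63), treadmill (-1.09) or catgut 1 group (-1.04). That of Rhobtb1 gained one with the level of Ddx3, Eif2s3y and Kdm5d (-0.72), and that of Lrrc30 turned to 0.25 with the clock level and 0.28 without the control group. The Tmem140 coefficient for the clock level lost its call with the Y-linked level (-1.16) or liver level (-1.60), and without the control group (-0.94), the treadmill group (-1.999), catgut group 2 (-1.74) or control replicates 1 and 2 (-0.84). For Rhobtb1 it turned to 0.71 with the Y-linked level and 0.20 without the treadmill group. These were chosen after seeing the data. DESeq2 called 112, 139 and 309 genes in the treadmill group against the control group and in catgut groups 1 and 2 against the treadmill group, 8 between the catgut groups, and 162 and 695 in catgut groups 1 and 2 against the control group, where edgeR called 8, 7, 35, 1, 3 and 75. With each library left out in turn, the edgeR counts were 0 to 12, 2 to 6, 6 to 30, 0 to 2, 0 to 12 and 12 to 492, the last highest without catgut 2 replicate 4 and lowest without catgut 2 replicate 1. For Prss46 in catgut group 1, counts of 0, 0 and 3 limit what depth can resolve.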

Other observations

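The slow-fibre myosin Myh7 ranged from 0.0984 to 417 FPKM over the 24 libraries. Its correlation with the 4 genes over these libraries was r = 0.16 for Lrrc30, -0.14 for Tmem140, -0.08 for Rhobtb1 and -0.26 for Prss46, and with group means removed it was 0.43, 0.20, -0.10 and -0.07. Summed liver markers had r = 0.53 with Lrrc30 and 0.62 with Tmem140, and 0.32 and 0.41 with group means removed. Without the 3 libraries rich in liver transcripts, Tmem140 was at -1.30 in catgut group 2 against the treadmill group, Lrrc30 at -1.41 in catgut group 1 against the treadmill group, and in the treadmill group against the control group Prss46 was at -2.53 and Rhobtb1 at -1.15.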
